A study of Mus musculus with 4 samples.

Results

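GR binding was described at 7 genes of interleukin 6 signalling: the receptor genes Il6ra, Il6st and Lifr, the kinase gene Jak1, the transcription factor gene Stat3 and the inhibitor genes Socs3 and Pias3. Regions belonged to a gene when the nearest protein-coding transcription start site (TSS, GENCODE M21, mm10) of their centre was at that gene, and whether GR there acts on that gene was not measured. The 7 genes, of 21910 protein-coding genes, held 49 of the 31343 regions found after dexamethasone and 12 of the 5883 found after vehicle. All 12 of the latter matched a dexamethasone region one to one, among 5665 such shared regions, and 37 of the 25592 dexamethasone regions outside the vehicle set lay at these genes.

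The glucocorticoid receptor (GR), a transcription factor activated by steroid, was precipitated from livers of male mice aged 6 to 8 weeks and its bound DNA was sequenced (ChIP-seq). The ZT18 Dex group (n = 2 libraries) received 1 mg/kg of water-soluble dexamethasone, a synthetic GR agonist, into the peritoneum, and the ZT18 Vehicle group (n = 2) an equal mass of (2-hydroxypropyl)-beta-cyclodextrin. Liver was taken 1 h later, at ZT18, in the dark phase, and 3 precipitations were pooled per sample. The labels give both groups the genotype Hnf4afl/flAlbCre+/-, in which Cre from the albumin promoter acts in hepatocytes, and also mention floxed littermate controls, whereas the methods of the study name C57BL/6 mice, and this was not settled here. No label says that libraries came from separate animals, so the p-values reflect how far these libraries differ from each other, which may be technical. In the edgeR fit this spread was taken from the trend over regions and not from a single region's own replicates.

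Library totals ran from 29179899 reads (Vehicle replicate 2) to 91494606 (Vehicle replicate 1). The share of reads in a library's own regions was 1.04% to 1.35% in Vehicle and 6.35% to 7.79% in Dex. These shares are summed over 5883 regions in Vehicle and 31343 in Dex, so they do not compare signal at the same regions. Median reads per region ran from 51 to 124, the lowest in Vehicle replicate 2. Replicate 2 was above replicate 1 at 75.0% of all dexamethasone regions and 77.8% of all vehicle regions. Of hepatocyte marker genes, 5 of 8 had a vehicle region and 8 of 8 a dexamethasone region. Of Kupffer cell markers 0 of 5 had one in both sets, of endothelial markers 3 of 4 in both, and of other tissues 1 and 3 of 6. Over all protein-coding genes the shares were 18.3% in vehicle and 50.2% after dexamethasone. A region shows GR and not expression.

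Interleukin 6 binds the receptor encoded by Il6ra and then recruits the signal-transducing receptor chain encoded by Il6st. JAK kinases on the receptor phosphorylate STAT3, which enters the nucleus and, in hepatocytes, turns on acute phase genes together with Socs3, whose product feeds back on the receptor complex. Lifr encodes the partner chain for leukaemia inhibitory factor and related cytokines, and PIAS3 is an inhibitor of STAT3. Glucocorticoids are known to act together with interleukin 6 on acute phase genes in liver.

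GR binds DNA as a pair on a glucocorticoid response element (GRE), whose core was searched here as ACANNNTGT on both strands. The full element adds G and any base before the core and any base and C after it. A full element was present in 4 of the 49 regions, and these 4 stretches are shown first, since they are the sites that match the receptor's own motif. Each runs 5′ to 3′ on the plus strand of mm10 (GRCm38.p6), with the full element in capitals:
Lifr, 51.2 kb upstream, chr15:7039281-7039341: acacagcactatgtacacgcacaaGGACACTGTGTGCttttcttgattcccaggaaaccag
Lifr, 1.68 kb upstream, chr15:7088951-7089011: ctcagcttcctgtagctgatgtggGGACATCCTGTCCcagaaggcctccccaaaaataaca
Il6ra, 7.71 kb inside, chr3:89905247-89905307: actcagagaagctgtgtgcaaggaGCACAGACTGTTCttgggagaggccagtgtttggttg
Jak1, 15.0 kb inside, chr4:101250127-101250187: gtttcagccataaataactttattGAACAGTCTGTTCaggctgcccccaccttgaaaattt

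Only the element 1.68 kb upstream of Lifr lay in a shared region. The 3 regions at which signal was called higher after dexamethasone held no full element, and each held the core. The core nearest the centre of each is given in capitals, because these are the regions that carry the comparison below; the stretches centred on matches were chosen after their values were seen:
Il6ra, 3.07 kb inside, chr3:89910239-89910299: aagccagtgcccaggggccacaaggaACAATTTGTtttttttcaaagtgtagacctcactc
Lifr, 48.1 kb inside, chr15:7138767-7138827: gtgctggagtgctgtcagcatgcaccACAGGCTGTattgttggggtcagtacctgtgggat
Lifr, 69.5 kb inside, chr15:7160515-7160575: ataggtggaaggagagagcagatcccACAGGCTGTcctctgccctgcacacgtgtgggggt

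These cores lay 140, 128 and 394 bp from the centres of their dexamethasone regions. The last, at 7160541 to 7160549, lay outside the matching vehicle region, which ends at 7160495. The core is common: it was found in 18 of the 49 regions (36.7%) against 20.8% of all 31298 dexamethasone regions searched. In the 200 bp about the centre it was in 8 (16.3%) against 9.99%. Most of the 18 were at Lifr, which held 20 of the 49 regions, the others at Jak1, Il6ra and Il6st, and none at Stat3, Socs3 or Pias3. The full element was found in 8.16% of the 49 regions against 4.60%, and within 200 bp in 2 (4.08%) against 2.70%. Median width was 563 bp in these regions and 515 bp in all, so the whole-region shares do not rest on the same length. A match is a stretch of letters and not a measured site.

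**Figure D1:**
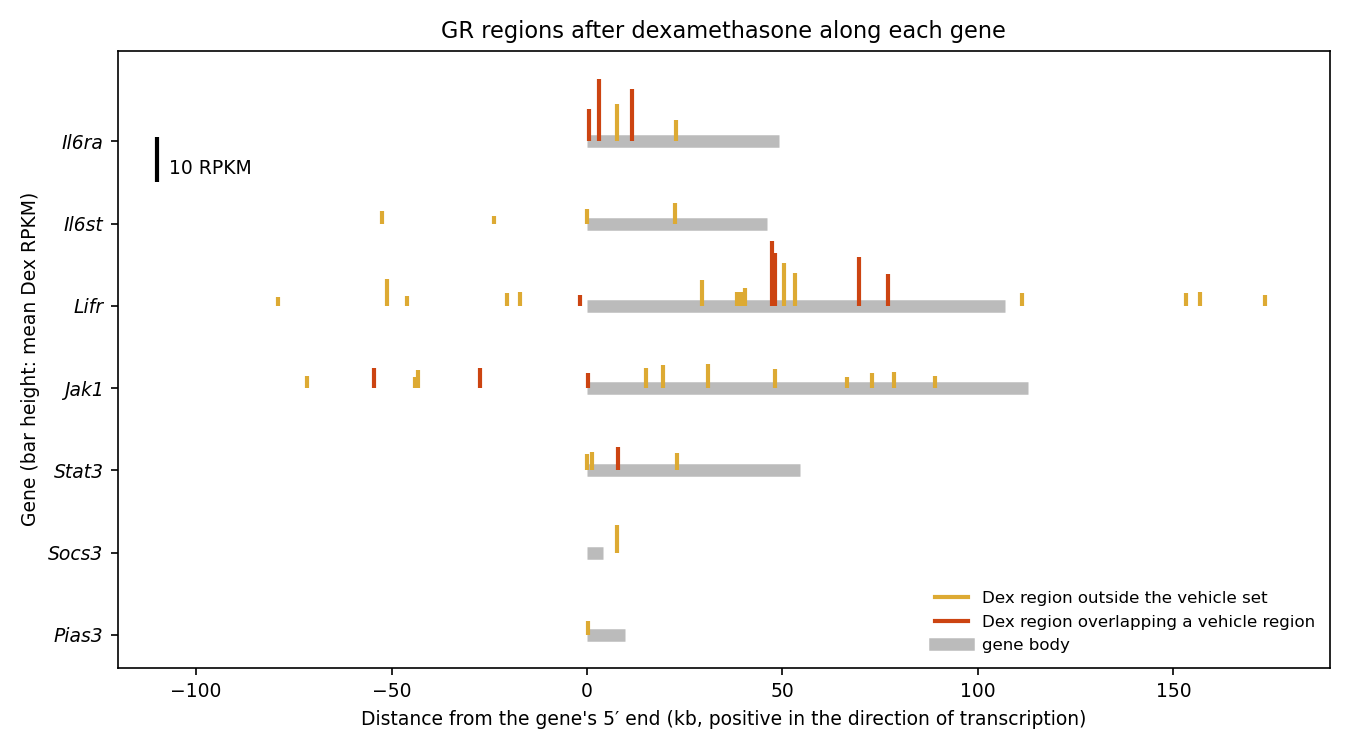
Dexamethasone regions of the 7 genes, drawn at their distance in kb from each gene's 5′ end, with bar height giving the mean Dex RPKM of 2 libraries (the scale bar is 10 RPKM) and grey bars the gene bodies. Lifr carried 20 regions and Jak1 14, Socs3 and Pias3 carried 1 each, and regions that overlapped a vehicle region lay at Il6ra, Lifr, Jak1 and Stat3.

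All 7 genes had a dexamethasone region, against 50.2% of protein-coding genes, and 4 of the 7 had a vehicle region, against 18.3%. Il6st, Socs3 and Pias3 had none in vehicle. The number of regions differed widely between the genes. Lifr had 20, a number reached by 0.246% of protein-coding genes, and Jak1 had 14, reached by 0.872%. Il6ra had 5 (8.53%), Il6st and Stat3 4 each (11.9%), and Socs3 and Pias3 1 each. In vehicle, Lifr had 5 regions (0.411% of genes had as many), Il6ra and Jak1 3 each (1.84%), and Stat3 1. Each set was called by the authors over ZT6 and ZT18 libraries of 1 treatment, so a region's absence from the vehicle set does not show absence of signal, and vehicle reads are lacking there. Long genes can hold more regions, and gene length was not taken into account in these shares.

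Of the 49 regions, 10 touched a promoter, 26 lay in introns, 3 in exons and 10 between genes. Promoters made up 33.4% of all dexamethasone regions, introns 36.9%, exons 3.89% and intergenic sequence 25.8%. Signal was above the median of all dexamethasone regions in 31 of the 49, and 10 were in the top 10%. The median mean RPKM (reads per kb of region, scaled to the total reads of the library) was 3.96 over the 49 and 3.14 over all.

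At the 12 shared regions, 3 were called higher after dexamethasone by edgeR's quasi-likelihood test at an adjusted p under 0.05, against 11.8% of all 5665 shared regions. These were 1 intronic region of Il6ra and 2 regions of Lifr. None of the 12 was called lower by edgeR (0.0% of all), with 0 lower at an unadjusted p under 0.05. The latter count changed with the scaling. It was 1 with TMM (691 of all 5665) and 2 with library sizes from the shared regions (858 of all). DESeq2 called 0 lower of the 8 for which it gave an adjusted p, against 28 of all 2590 with one. The 4 without an adjusted p include both regions that were negative in edgeR. In the DESeq2 fit 4 of the 12 had a negative log2 fold change. Of these only the Il6ra promoter had an adjusted p (-0.19, DESeq2 adjusted p = 0.714). The 3 calls did not hold when any 1 library was left out, which leaves 1 library in a group. Calls over all 5665 shared regions also became fewer in each of these fits, so the loss was not particular to the 12. The median log2 fold change was 0.60 over the 12 and 0.43 over all shared regions, but this order turned without Vehicle replicate 1 (0.25 against 0.27). Without Vehicle replicate 2 the medians were 1.17 and 0.61, and without Dex replicate 1 they were 0.94 and 0.57. Without Dex replicate 2 they were 0.33 and 0.28. TMM scaling moved the median of all regions to -0.03 and that of the 12 to 0.18, and the same 3 regions were called, against 6.04% of all, the Lifr region at 48.1 kb with an edgeR adjusted p of 0.0487. In bulk liver, more cells with bound GR and more GR per cell cannot be told apart.

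**Figure D2:**
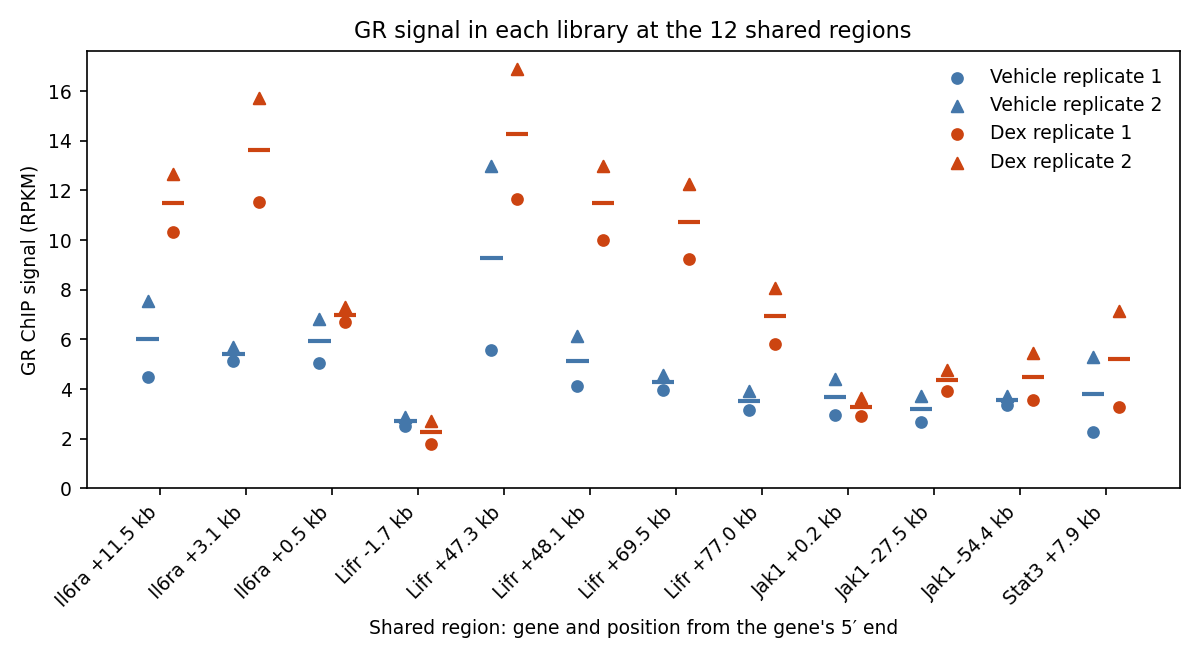
GR signal (RPKM, linear axis from 0) in each of the 4 libraries at the 12 shared regions, with replicate 1 as circles, replicate 2 as triangles and the group mean as a line. Both Dex libraries lie above both Vehicle libraries at 6 of the 12, against 51.5% of all shared regions, and the groups overlap at the other 6. Those without overlap are at Il6ra, Lifr or Jak1.

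Il6ra encodes the ligand-binding receptor chain and lies on the minus strand of chromosome 3 (89864059 to 89913196). Its strongest region was in an intron, 3.07 kb from the 5′ end (89909800 to 89910456). Signal there was 5.12 and 5.71 RPKM in Vehicle replicates 1 and 2, and 11.5 and 15.7 RPKM in Dex replicates 1 and 2, from 270, 96, 486 and 671 reads. The groups did not overlap, and the spread between the Dex libraries was larger than that between the Vehicle libraries. The fold was 2.52 (log2 1.33 ± 0.45, SE, edgeR adjusted p = 0.0361), which is 0.90 above the median of all shared regions on the log2 scale. Leaving out 1 library at a time gave log2 fold changes of 1.09 to 1.54 with edgeR adjusted p of 0.117 to 0.719. Its mean Dex signal of 13.6 ± 2.95 RPKM (SD, n = 2) was at the 99.2nd percentile of dexamethasone regions.

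A further Il6ra intron region, 11.5 kb from the 5′ end, had 4.50 and 7.54 RPKM in Vehicle and 10.3 and 12.7 in Dex. Both Dex libraries were above both Vehicle libraries, but the test did not pass (log2 fold change 0.95 ± 0.44, SE, edgeR adjusted p = 0.129). Over the Il6ra promoter, 0.51 kb from the 5′ end, signal was 5.06 and 6.83 RPKM in Vehicle and 6.69 and 7.30 in Dex. The groups overlapped, the log2 fold change was 0.25 (95% interval -0.53 to 1.04, edgeR adjusted p = 0.722), and it was -0.19 under TMM scaling. The promoter's dexamethasone region was 2.50 times as wide as its vehicle region, against 1.14 times at the intron region 3.07 kb inside. With region width left out of the fit the log2 fold change was 1.57 at the promoter (edgeR adjusted p = 0.00039) and 1.52 at that intron region, so the contrast between them was not seen there. The difference between their changes was not tested. The Il6ra regions outside the vehicle set were the one with a full GRE, at 6.48 and 9.89 RPKM in Dex, and one in an exon 22.8 kb from the 5′ end, at 4.28 and 5.09 RPKM.

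Il6st encodes the signalling chain shared by the cytokines of this family (chromosome 13, 112464070 to 112510086, plus strand). It had 4 dexamethasone regions and no vehicle region. The promoter region, centred 0.02 kb upstream, had 3.08 and 3.28 RPKM in the Dex libraries. The strongest lay in an intron 22.5 kb from the 5′ end, at 3.57 and 5.25 RPKM (4.41 ± 1.19, SD, n = 2, 74.4th percentile), and 62.2% of its bases were repeat-masked. A weak region 23.9 kb upstream had 0.752 RPKM in Dex replicate 1 and 2.72 in replicate 2, and one 52.5 kb upstream had 2.80 and 2.62. Each mean was below that of the weakest Il6ra region (4.69 ± 0.570 RPKM), although the strongest Il6st region differed from it by less than its SD.

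Lifr encodes the receptor chain that pairs with the Il6st product for leukaemia inhibitory factor (chromosome 15, 7090614 to 7197489, plus strand). Of its 5 shared regions, 2 were called higher. The region 69.5 kb inside, in an intron (7159725 to 7160575), had 3.95 and 4.59 RPKM in Vehicle and 9.22 and 12.3 in Dex, from 292, 108, 503 and 678 reads. The groups did not overlap, and the fold was 2.52 (log2 1.33 ± 0.45, SE, edgeR adjusted p = 0.0365). The region 48.1 kb inside (7138482 to 7138855) touches the promoter of an internal Lifr transcript. It had 4.12 and 6.14 RPKM in Vehicle and 9.99 and 13.0 in Dex, from 137, 65, 239 and 315 reads. The groups did not overlap there either, and the fold was 2.28 (log2 1.19 ± 0.38, SE, edgeR adjusted p = 0.0265). With 1 library left out at a time the adjusted p (edgeR) ran from 0.125 to 0.715 at the former and from 0.0648 to 0.624 at the latter. The log2 fold changes then ran from 1.11 to 1.52 and from 0.90 to 1.48. The latter was also not called with DESeq2, where its log2 fold change was 0.75 (adjusted p = 0.084), or with library sizes from the shared regions, where it was 0.68 (edgeR adjusted p = 0.063).

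The strongest region of all 49 was a close neighbour of that promoter region, 47.3 kb inside Lifr (7137590 to 7138219). It had 5.57 and 13.0 RPKM in Vehicle and 11.7 and 16.9 in Dex, so that Vehicle replicate 2 was above Dex replicate 1. Its log2 fold change was 0.65 ± 0.45 (SE, edgeR adjusted p = 0.331), and it ran from 0.14 without Vehicle replicate 1 to 1.36 without Vehicle replicate 2. Its mean Dex signal of 14.3 ± 3.68 RPKM (SD, n = 2) was at the 99.3rd percentile and its vehicle signal at the 97.5th. A wide intron region 77.0 kb inside had 3.14 and 3.94 RPKM in Vehicle and 5.81 and 8.06 in Dex, without overlap, and was not called (log2 0.98 ± 0.45, SE, edgeR adjusted p = 0.128).

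The promoter region 1.68 kb upstream of Lifr was the one shared region with a full GRE. Its signal was among the lowest, at 2.52 and 2.89 RPKM in Vehicle and 1.80 and 2.71 in Dex. The groups overlapped, and the log2 fold change was -0.24 (95% interval -0.96 to 0.48, edgeR adjusted p = 0.715), or 0.95 when region width was left out of the fit. Its dexamethasone region was 2.28 times as wide as its vehicle region. The remaining 15 Lifr regions, outside the vehicle set, ran from 1.96 to 9.36 RPKM on average. The highest, 50.4 kb inside, had 8.42 and 10.3 RPKM, and the one 51.2 kb upstream with a full GRE had 5.06 and 6.74. Between 47.3 and 53.3 kb inside the gene lay 4 Lifr regions, at 6.96 to 16.9 RPKM in the Dex libraries, while the called region at 69.5 kb, stronger than 2 of them, and the region at 77.0 kb lay apart. Of the others, 3 lay inside the neighbouring gene Egflam at 2.29 to 3.10 RPKM on average.

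**Figure D3:**
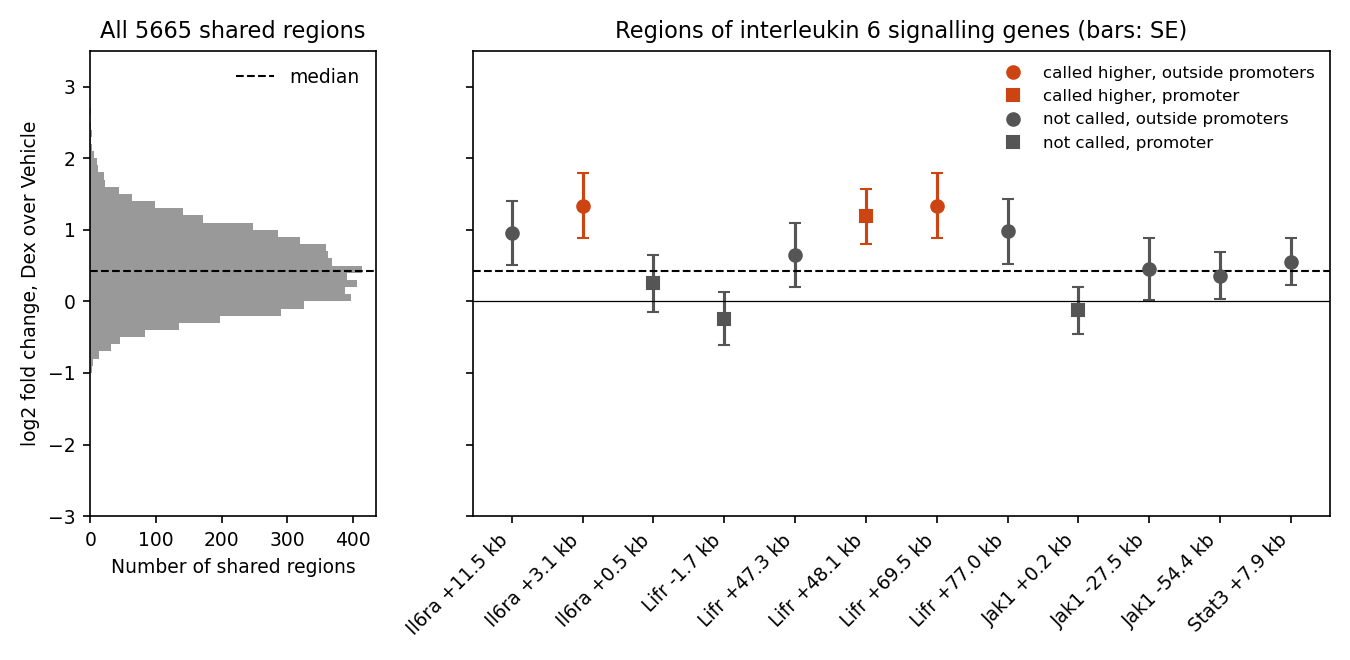
Left, the distribution of log2 fold changes (Dex over Vehicle) over all 5665 shared regions, with the median of 0.43 dashed; right, the 12 regions with SE bars, squares for promoters and circles for others, and called regions in orange. The called regions are at 1.33, 1.19 and 1.33, the Il6ra, Lifr and Jak1 promoters near the 5′ ends are at 0.25, -0.24 and -0.13, and the sign of the Il6ra promoter turns under TMM scaling and those of the Lifr and Jak1 promoters when width is left out.

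Jak1 encodes the receptor-bound tyrosine kinase (chromosome 4, 101152367 to 101265282, minus strand). It had 14 dexamethasone regions, of which 3 were shared and none was called by edgeR. DESeq2 gave an adjusted p only for the one 27.5 kb upstream and did not call it. The promoter region, 0.17 kb from the 5′ end, had 2.96 and 4.39 RPKM in Vehicle and 2.92 and 3.63 in Dex. The groups overlapped, with a log2 fold change of -0.13 (95% interval -0.77 to 0.51, edgeR adjusted p = 0.838). The region 27.5 kb upstream had 2.68 and 3.72 RPKM in Vehicle and 3.93 and 4.76 in Dex, without overlap, at a log2 fold change of 0.46 ± 0.43 (SE, edgeR adjusted p = 0.502). The region 54.4 kb upstream had 3.35 and 3.73 RPKM in Vehicle and 3.56 and 5.45 in Dex, which overlapped (log2 0.36 ± 0.33, SE, edgeR adjusted p = 0.484). With library sizes from the shared regions the signs of these upstream regions turned, to -0.05 and -0.20.

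The strongest Jak1 region was outside the vehicle set, in an intron 30.8 kb from the 5′ end, with 4.29 and 6.03 RPKM in the Dex libraries (5.16 ± 1.23, SD, n = 2, 82.3rd percentile). The core stands at its centre. Of the 49 regions, 6 held the core in the central 100 bp (12.2%, against 5.37% of all dexamethasone regions). The same 100 bp about the centre held no core in the strongest region of any other member gene, or in any called region. The stretch is shown on the plus strand with the core in capitals:
Jak1, 30.8 kb inside, chr4:101234383-101234482: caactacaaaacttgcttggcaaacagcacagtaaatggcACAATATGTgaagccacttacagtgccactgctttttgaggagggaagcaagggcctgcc

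The Jak1 region with the full GRE, 15.0 kb inside, had 3.58 and 5.25 RPKM, and a neighbour 19.4 kb inside had 3.04 and 7.14, a wider gap between the libraries. Over the 11 Jak1 regions outside the vehicle set the mean signal ran from 2.32 to 5.16 RPKM. Jak1 therefore had many regions of moderate signal and Lifr many with a few that were strong. Of the Jak1 regions, 4 lay inside the gene Gm12796.

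Stat3 encodes the transcription factor that the receptor complex activates (chromosome 11, 100885098 to 100939540, minus strand). Its single shared region, in an intron 7.86 kb from the 5′ end, had 2.29 and 5.30 RPKM in Vehicle and 3.30 and 7.14 in Dex. The groups overlapped, and replicate 2 was more than 2 times replicate 1 in both groups. The log2 fold change was 0.55 ± 0.33 (SE, edgeR adjusted p = 0.250), and it ran from -0.12 to 1.19 with 1 library left out, the highest being without Vehicle replicate 2 (edgeR adjusted p = 0.0333). Outside the vehicle set, the promoter region had 3.69 and 3.26 RPKM in the Dex libraries. Those 1.21 and 22.9 kb inside had 3.41 and 4.71, and 3.14 and 4.48 RPKM, and 56.8% of the bases of the latter were repeat-masked.

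Socs3, the feedback inhibitor that STAT3 induces (chromosome 11, 117966079 to 117970047, minus strand), had 1 region, which lay beyond the gene's 3′ end, 7.69 kb from its 5′ end. Signal there was 7.25 RPKM in Dex replicate 1 and 4.95 in replicate 2 (6.10 ± 1.62, SD, n = 2, 88.7th percentile). It was 1 of 7 of the 49 regions in which replicate 1 was the higher. A full or core GRE was not found in it, while a match to the STAT motif TTCNNNGAA was; that stretch is shown on the plus strand with the match in capitals, because STAT3 acts on Socs3:
Socs3, chr11:117962268-117962328: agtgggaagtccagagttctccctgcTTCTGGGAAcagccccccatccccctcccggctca

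TTCNNNGAA was found in 8 of the 49 regions (16.3%), against 17.1% of all dexamethasone regions, so the share at these genes was close to that elsewhere. The stricter TTCCNGGAA, which is contained in it, was found in 1 (2.04% against 2.95%), at Lifr. Pias3, whose product inhibits STAT3 (chromosome 3, 96696384 to 96706070, plus strand), had 1 region, over its promoter, with 2.91 and 3.07 RPKM in the Dex libraries (2.99 ± 0.113, SD, n = 2, 45.5th percentile). This was below the median of all dexamethasone regions.

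**Figure D4:**
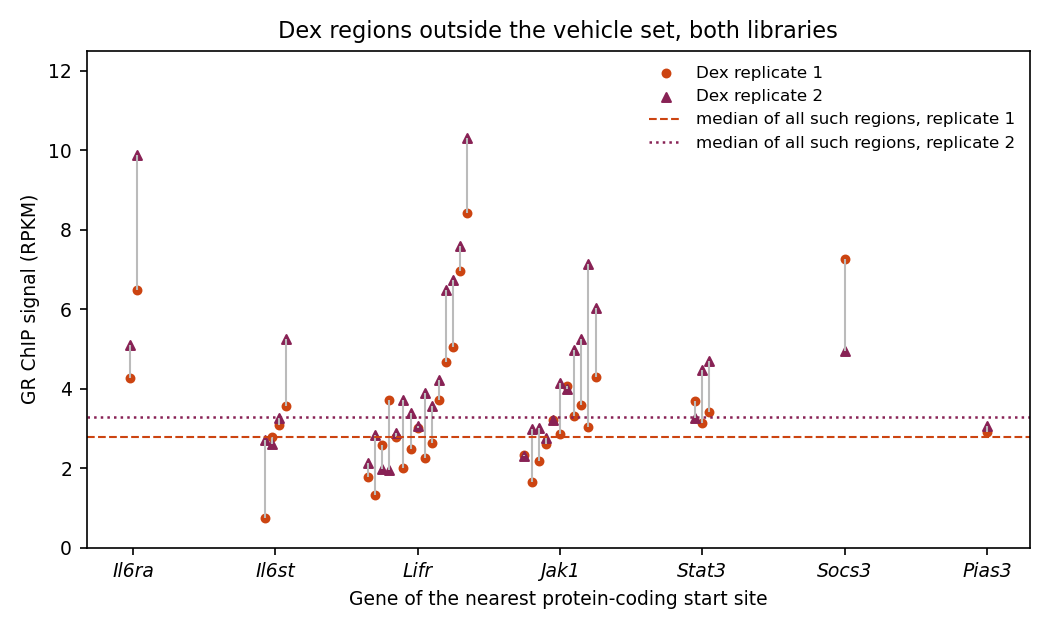
Signal (RPKM, linear axis from 0) of the 37 dexamethasone regions outside the vehicle set, by gene, with Dex replicate 1 as circles and replicate 2 as triangles joined by a line; the horizontal lines are the medians of all such regions, 2.80 in replicate 1 and 3.30 in replicate 2. The highest are at Lifr (9.36 on average) and Il6ra (8.18), and the single Pias3 region lies near the medians.

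Outside the vehicle set, 23 of the 37 regions were above the median of all such regions, and their median signal was 3.22 RPKM against 3.02. Among dexamethasone regions overlapping a vehicle region the median was 6.96 RPKM at the 12 and 4.29 over all. Replicate 2 was above replicate 1 in 42 of the 49 regions in Dex and in 12 of 12 in Vehicle, with a median log2 ratio of 0.41 and 0.45, against 0.27 and 0.34 over all regions. The comparison therefore moved with the libraries set side by side. Over the 12, the median log2 ratio of Dex replicate 2 to Vehicle replicate 1 was 1.43, and that of Dex replicate 1 to Vehicle replicate 2 was 0.02. Over all shared regions the same ratios were 0.75 and 0.13. The part of library efficiency in the calls was not tested.

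Both Dex libraries were above both Vehicle libraries at 6 of the 12 regions, against 51.5% of all shared regions, and at none of the 12 were both below, against 4.78%. By location, 1 of the 4 regions over promoters was called higher, against 4.47% of all shared promoter regions, and 2 of the 8 outside promoters, against 17.7%. The promoter call was at the internal Lifr transcript, and none of the 3 promoters near a gene's 5′ end was called by edgeR. DESeq2 gave an adjusted p for the Il6ra promoter only, which it did not call. Median log2 fold change was 0.06 over the promoters and 0.80 outside them, against 0.18 and 0.65 over all shared regions. The widths of the 3 called regions were nearly alike in both sets, at ratios of 1.14, 1.03 and 1.05. The dexamethasone region was 1.88 to 2.50 times as wide at the promoters near the 5′ ends. At the uncalled regions outside promoters it was 1.30 (Stat3) to 2.41 (Jak1, 27.5 kb upstream) times as wide. With width left out of the fit all 12 regions were called higher, as were 67.9% of all shared regions, so which regions were called rests on reads being taken per base of region.

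Of the other motifs, the forkhead (FOXA) sequence TGTTTAC was found in the central 200 bp of 7 of the 49 regions (14.3%), against 4.32% of all dexamethasone regions, and anywhere in 11 (22.4% against 10.1%). In the central 100 bp it was in 2 (4.08% against 2.26%). The C/EBP sequence TTGCNNAA was in the central 200 bp of 5 (10.2% against 13.1%), and the HNF4A sequence CAAAGTCCA in none of them (against 1.40%) and anywhere in 2. FOXA factors open liver chromatin and C/EBP factors take part in the acute phase response. The 7 regions with a central FOXA match were at Jak1, Lifr and Il6st only, and none was a called region. Promoters were touched by 10 of the 49 regions, against 33.4% of all, and motif shares were not matched for location. All motifs were searched on both strands, and no test of these shares was made.

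The shared regions most like the called ones, by Euclidean distance of log2 RPKM over the 4 libraries, were at other liver genes in part. Those nearest the Il6ra region were at Saa1 (distance 0.12), an acute phase protein gene, Bbs10 (0.16) and Cyp2d9 (0.21). Those nearest the Lifr region at 48.1 kb were at Fbxo15 (0.16), Apof (0.18) and Ahdc1 (0.18), and those nearest the Lifr region at 69.5 kb at Cpeb4 (0.08), Cln8 (0.08) and Gm10309 (0.10).

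Another 36 genes of the pathway were described for context. A dexamethasone region was found at 21 of them (58.3%, against 50.2% of protein-coding genes) and a vehicle region at 8 (22.2%, against 18.3%). Of the cytokine genes 1 of 8 had a region, Lif (1.96 ± 0.344 RPKM in Dex, SD, n = 2), and Il6 itself had none. Receptors had regions at 2 of 3 genes, kinases at 1 of 3, STATs at 4 of 6, SOCS genes at 6 of 7, PIAS genes at 2 of 3 and phosphatases and adaptors at 4 of 5, and the sheddase gene Adam17 had 1. The strongest regions by role were at Il11ra1 (3.77), Jak2 (2.56), Stat5b (7.66), Socs2 (7.68), Pias1 (6.63), Grb2 (7.73) and Adam17 (2.77 RPKM on average in Dex). Among the feedback inhibitors, the strongest Socs2 region (7.68 ± 0.752) and the Socs3 region (6.10 ± 1.62) differed by less than the SD of the latter.

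Of 11 shared regions at these 36 genes, 2 were called higher and 0 lower by edgeR, against 11.8% and 0.0% of all shared regions, with 0 lower at an unadjusted p under 0.05. The calls changed with the scaling: edgeR with TMM, or with library sizes from the shared regions, called 0 higher and 2 lower, the promoter regions of Stat6 and Cish. Over all 5665 shared regions TMM called 342 higher and 100 lower, and shared-region library sizes 294 higher and 133 lower. With TMM the log2 fold change was -1.03 at Stat6 (edgeR adjusted p = 0.0175) and -0.84 at Cish (edgeR adjusted p = 0.0396), against -0.62 and -0.45 as reported, neither called. DESeq2, which gave an adjusted p for 8 of the 11, called Stat6 lower, against 28 lower of all 2590 regions with an adjusted p. An intron region of Stat5a had 3.19 and 2.90 RPKM in Vehicle and 8.03 and 6.30 in Dex (log2 fold change 1.23, edgeR adjusted p = 0.0407). A region 40.5 kb upstream of Pias1 had 2.75 and 4.13 RPKM in Vehicle and 6.49 and 6.76 in Dex (log2 0.99, edgeR adjusted p = 0.0372). Neither was called with TMM, with shared-region library sizes, with DESeq2 or with any 1 library left out. Over the 11 the median log2 fold change was 0.24, against 0.43 over all shared regions. With 1 library left out it ran from -0.04 without Vehicle replicate 1 to 0.61 without Vehicle replicate 2, and with TMM it was -0.17 against -0.03 over all.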

How the data were processed

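GR ChIP-seq of liver was used from 2 Vehicle and 2 Dex samples, grouped by title. Alignment was to mm10, and Bowtie 1.1.0, SAMtools 1.2 and MACS2 2.1.1 are named in the processing notes of the submitters. The authors called regions over ZT6 and ZT18 libraries separately per treatment and deposited whole read counts per region and library. The deposited RPKM is that count per kb of region, scaled to the reads of the library, from which the library total was recovered. Spike-in chromatin was added, but no scaling factor was found in the labels or methods, so a change common to all regions rests on library totals. Of the values deposited for these libraries, only the read counts and the RPKM were used. The 4 tables with 20 value columns of ZT6 libraries, which belong to other samples, were not used.

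Regions of both sets were matched with bedtools 2.31.1 (at least 1 bp, one to one). Counts were tested with edgeR 4.0.16 (quasi-likelihood, two-sided, R 4.3.3), with an offset of library total times region width, a minimum of 10 reads in 2 or more libraries (0 regions removed) and Benjamini-Hochberg adjustment over 5665 regions at 0.05. The last called region had an adjusted p of 0.0500 and the first not called 0.0502. The common dispersion was 0.0529 and the prior degrees of freedom came out infinite, which means that a region's SE comes from the trend over regions and not from its own replicates. The smallest p of an exact permutation test of 2 against 2 is 0.33. Tested on simulated counts for this comparison (5665 regions, 200 changed), the test found 19% of the changes of 2-fold and 98% of those of 4-fold, and called 2 of the 5465 others. No library was shifted as a whole in that simulation.

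A promoter spanned 2000 bp before and 200 bp after any GENCODE M21 TSS. Positions are those of region centres from the gene's 5′ end, and coordinates are as deposited. Sequences are from GRCm38.p6. All regions of the 7 genes were named, with the 3 most similar shared regions of each called one and, of 36 other pathway genes, those with a called region and the strongest per role. Genes, lists and tests were chosen with earlier results of these data known. Alternatives were TMM, shared-region library sizes, no width, a 50% overlap, other count minimums, DESeq2 1.42.0, a replicate block, each library left out, other motif windows and other rules for the nearest gene.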

Additional observations from a re-analysis of the deposited data

How the results depend on the processing

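Counts of regions called higher, over all shared regions and over the 12 of the 7 genes, were 666 and 3 as reported. They were 342 and 3 with TMM, 294 and 2 with library sizes from the shared regions, 265 and 2 with DESeq2, 3845 and 12 without region width, 684 and 3 with a 50% overlap (8 of the 12 left), 666 and 3 with no count minimum and 671 and 3 with at least 50 reads. Leaving out 1 library gave 3 to 323 over all, the lowest without Dex replicate 2, and 0 to 1 over the 12. In the central 100 bp, 0 of the 49 regions held a full GRE (against 1.53% of all dexamethasone regions) and 6 the core (12.2% against 5.37%). Counts called lower over all were 0 as reported, 100 with TMM, 133 with shared-region library sizes, 28 with DESeq2, 9 without width, 1 with a 50% overlap and 0 to 11 with 1 library left out.

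A fit with a replicate block gave 2122 higher, 26 lower and 6 of the 12 called. Over regions, the deviations of same-numbered samples had a correlation of 0.0784. Such a correlation cannot show a shift common to all regions. Replicate 2 was above replicate 1 at 75.0% of dexamethasone regions and 77.8% of vehicle regions. Whether the numbers are pairs was therefore not decided, and the reported fit had no block.

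Signs turned at the Il6ra region at 0.51 kb (-0.19 with TMM and DESeq2, -0.25 with shared-region sizes), the Jak1 regions at -54.43 kb (-0.14, -0.13 with DESeq2, -0.20) and -27.47 kb (-0.047 with shared-region sizes), and, without width, at the Lifr region at -1.68 kb (0.95) and the Jak1 region at 0.17 kb (0.78). With 1 library left out these last ran from -0.57 to 0.024 and from -0.42 to 0.15, and Stat3 at 7.86 kb from -0.12 to 1.19. The cause was not tested. DESeq2 gave no adjusted p for 3075 of the 5665 regions and 4 of the 12. By the nearest start site of any gene, coding or not, 27 dexamethasone and 7 vehicle regions belonged to the 7 genes, within 100 kb 48 and 12, and within 10 kb 20 and 8.

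Single regions are limited by 51 to 124 reads at the median, 2 libraries a group, and regions drawn to different widths in the 2 sets. A change common to all regions moves with the scaling.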
